A study of Homo sapiens with 6 samples.

Results

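The annexin family was described here through 10 genes, ANXA1 to ANXA8, ANXA10 and ANXA11, of 24294 loci in the deposited table. Members were taken by symbol, and where a symbol was listed more than once the row with the highest mean FPKM was used. The family was selected on its FPKM values in the EV and miR-424 samples, ANXA8 by name for its difference between them, so that the members' differences between the groups are given as a description, without a p-value. Of the 10 members, 9 averaged 1 FPKM or more across the libraries and entered the fit of all loci, and ANXA10 did not.

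The cells were MCF12A, an immortalized human mammary epithelial line that the labels call a cancer line, grown for 48 hours. The 3 EV samples stably carried an empty vector and the 3 miR-424 samples stably over-expressed the microRNA miR-424, and the labels name no other allele or agent. The vector, its promoter and whether a line is a clone are not named in the sources used here. The samples of a group were grown in triplicate, and no separate derivation of the lines is described, so p-values cover the spread among these 6 samples, which can be purely technical. FPKM is the number of sequenced fragments scaled to transcript length and to library size.

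Annexins bind membrane phospholipids when calcium rises. They share a conserved core of repeats that holds the calcium sites, and differ in the N-terminal tail, which carries partner binding and regulation. In epithelial cells they are known for organising the inner face of the plasma membrane, for vesicle traffic, and for sealing membrane wounds. Several bind dimers of S100 proteins, such as ANXA2 with S100A10 and ANXA1 with S100A11. ANXA8 is known in breast as a gene of basal-type epithelial cells.

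Sequences from this family bear on how the values can be read. ANXA8 has near-identical copies on chromosome 10, and the windows below, coding bases 501 to 560, show the densest of their differences, in capitals, between ANXA8 (chr10:47474391-47474996, minus strand, across an intron) and the copy ANXA8L1 (chr10:46384782-46385387, plus strand, across an intron; GENCODE 29, GRCh38).
ANXA8: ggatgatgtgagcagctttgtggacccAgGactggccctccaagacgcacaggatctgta
ANXA8L1: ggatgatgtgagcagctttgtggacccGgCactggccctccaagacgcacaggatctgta
Counted from 1 at the first base of the start codon, ANXA8 and ANXA8L1 differ by T16G, C276T, A528G, G530C and T939C, which is 5 of 984 coding bases (99.5% identity). The longest coding stretch without a difference is 408 bases, and the 3' UTRs differ at 1 of 854 bases. Reads from these copies can therefore often not be assigned to one of them.

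ANXA2 has processed pseudogenes, copies of its spliced transcript elsewhere in the genome. The window with the most differences, coding bases 161 to 220, is shown for ANXA2 (chr15:60364452-60364511, minus strand) and ANXA2P2 (chr9:33624434-33624493, plus strand; GENCODE 29, GRCh38), with the differing bases in capitals.
ANXA2: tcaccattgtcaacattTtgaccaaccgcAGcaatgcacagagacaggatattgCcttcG
ANXA2P2: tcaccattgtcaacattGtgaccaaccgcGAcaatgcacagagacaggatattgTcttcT
The differences in that window are T178G, A190G, G191A, C215T and G220T. Over the whole coding sequence ANXA2P2 differs at 16 of 1020 bases (98.4% identity), while ANXA2P1 is 93.7% and ANXA2P3 91.3% identical to it over the aligned bases.

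The third set is the microRNA and its matches. The mature strand of miR-424 from RefSeq (GRCh38.p14) is shown with its seed, bases 2 to 8, in capitals, above the matches found in 3' UTRs of the members, with the matching bases in capitals (GENCODE 29, GRCh38, minus strand, chr10:80155609-80155638 and chr10:80153661-80153690).
hsa-miR-424-5p: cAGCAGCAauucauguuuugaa
ANXA11 site 1: tcacagcctctTGCTGCTAaaatagatgtt
ANXA11 site 2: agccccatcccTGCTGCTctcccaagaact
The motif searched was TGCTGCT, the complement of the seed, on the transcript strand, and its extension by 1 base, TGCTGCTA. All 10 members matched a GENCODE transcript, and the longest 3' UTR of each was searched. ANXA11 was the member with a match. Its first match, of 8 bases, begins at base 226 of the 3' UTR and is also in the shorter 3' UTR of 729 bases, and the second, of 7 bases, begins at base 2174 of the long form of 4964 bases. Of tested 3' UTRs of similar length to 729 bases (the shorter at least 80% of the longer) 1.56% hold the 8-base motif, and of those of similar length to 4964 bases 12.0% do. The 7-base motif TGCTGCT is held by 14.0% of those similar to 729 bases and by 51.3% of those similar to 4964 bases. The letters TGCTGCT are not in the 3' UTRs of the other 9 members, that of ANXA8 (854 bases) included, where 17.3% of 3' UTRs of similar length hold them. The coding sequences of ANXA5 and ANXA6 hold them 1 time each. A match is a description of the sequence and not a measured site.

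The libraries summed to between 409776 and 424564 FPKM. The sources used here give no read numbers, and only 4.25% to 7.53% of low loci lay within 0.03 (log2) of the commonest step against EV replicate 1, so depth could not be recovered. MiR-424 replicate 3 stood apart: its median absolute log2 difference per locus from miR-424 replicates 1 and 2 was 0.142 and 0.152, against 0.0408 between those 2 and 0.0357 to 0.0417 between EV libraries. Against the EV mean, miR-424 replicates 1 and 2 were higher over loci under 40% GC (medians 0.068 and 0.080) and lower over loci above 60% GC (-0.093 and -0.121), and replicate 3 had the opposite trend (-0.211 and -0.051). The locus that contains MIR424 read 0.989, 1.27 and 1.23 FPKM in the EV libraries and 107, 106 and 224 FPKM in the miR-424 libraries, which fits the labels but does not measure the mature microRNA. Of 7 basal mammary markers 6 reached 1 FPKM (KRT5 and ITGB4 among them, not TP63), as did 5 of 8 luminal ones (KRT8 and EPCAM, not CDH1). Of the markers of other cells, 0 of 6 endothelial, 2 of 6 leukocyte (CD68 and LYZ; PTPRC was at most 0.0679 FPKM) and 2 of 6 fibroblast genes (COL1A1 and DCN) reached it. Summed fibroblast markers ranged from 156 to 166 FPKM in EV libraries and from 164 to 185 FPKM in miR-424 libraries, leukocyte markers from 55.4 to 58.6 and from 53.8 to 59.9 FPKM, and endothelial markers from 0.358 to 0.389 and from 0.304 to 0.374 FPKM; their part in the values below was not tested.

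MCF12A cells carried abundant ANXA2, ANXA1 and ANXA5 transcripts in both groups. The summed level of the 10 members was 1784 ± 23.8 FPKM in EV libraries and 1704 ± 6.22 FPKM in miR-424 libraries (SD, n = 3 each). In EV libraries ANXA2 made up 52.7% ± 0.377 of that sum, ANXA1 22.8% ± 0.145 and ANXA5 14.0% ± 0.203 (SD, n = 3). Since FPKM is scaled to length, levels can be set beside each other. By mean over the 6 libraries the order was ANXA2 (919 FPKM), ANXA1 (392), ANXA5 (255), ANXA7 (68.2), ANXA11 (33.7), ANXA4 (33.3), ANXA6 (24.3), ANXA8 (16.1), ANXA3 (2.29) and ANXA10 (0.142 FPKM). Every neighbouring pair was separate across all 6 libraries except ANXA11 and ANXA4, of which ANXA11 was the higher in 3 of 6 libraries. The place of ANXA8 is that of 1 of 3 ANXA8 loci with closely similar values, given below. Their sum lay above ANXA11, ANXA4 and ANXA6 in each library, but may count the same fragments more than once. The place of ANXA8 below ANXA6 is therefore uncertain. ANXA2 ranked 56th and ANXA3 10182nd among the 11574 tested loci.

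**Figure D1:**
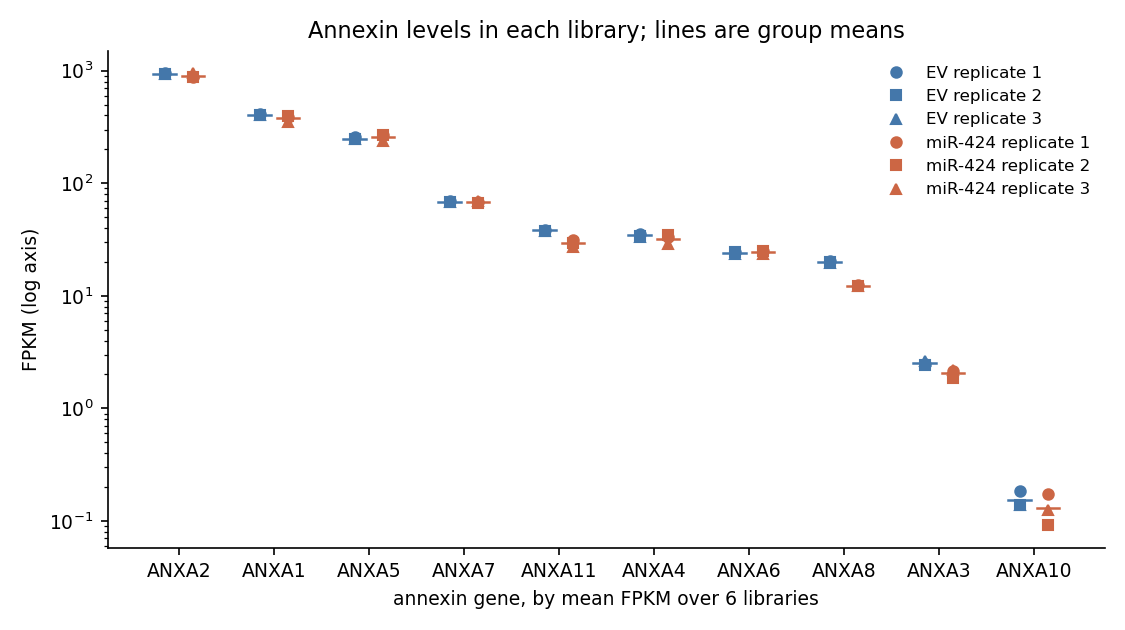
FPKM of the 10 annexin genes on a log axis, ordered by mean; blue symbols are EV and orange symbols miR-424 libraries, symbol shapes the replicates, and short lines the group means. The genes span from 919 FPKM for ANXA2 to 0.142 FPKM for ANXA10, and the groups are visibly apart for ANXA8 and ANXA11.

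ANXA8 and ANXA11 had the most negative log2 changes among the 9 tested annexins (-0.66 and -0.36), followed by ANXA3 (-0.20) and ANXA1 (-0.11), and the other 5 lay between -0.09 and 0.05. In the limma fit of all 11574 tested loci, 2 of the 9 tested members passed the Benjamini-Hochberg threshold of 0.05 as lower and 0 as higher, where 6.32% of all tested loci passed as lower and 1.24% as higher. At an unadjusted p under 0.05 there were 3 lower and 0 higher, with no share over all tested loci counted at that threshold. Since the members were chosen with this contrast known, nothing is read from these counts. The median log2 change, miR-424 minus EV on the log2(FPKM + 1) scale, was -0.09 over the 9 members and -0.05 over all tested loci. The groups did not overlap for 4 of the 10 members (ANXA1, ANXA3, ANXA8 and ANXA11), all lower in miR-424 libraries, which held for 26.9% of tested loci, and 0 were higher, which held for 6.59%. With median-of-ratios scaling between libraries, 3.77% of tested loci passed as lower and 2.97% as higher, and the log2 changes of ANXA8 and ANXA11 were -0.59 and -0.30. In bulk RNA, fewer cells with a transcript and less of it per cell cannot be told apart.

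ANXA8 read 20.4, 19.9 and 19.4 FPKM in EV replicates 1, 2 and 3 and 12.5, 12.2 and 12.1 FPKM in miR-424 replicates 1, 2 and 3 (chromosome 10, 48255224 to 48271368, hg19). All 3 miR-424 libraries lay below all EV libraries, and they lay close to each other. The means were 19.9 ± 0.521 and 12.2 ± 0.190 FPKM (SD, n = 3 each), a ratio of 0.616, and the log2 change was -0.66 ± 0.04 (SE). Of the 11574 tested loci, 40 had a more negative log2 change. The difference from the EV mean was -0.63, -0.66 and -0.67 in the 3 miR-424 libraries, while loci of 50% to 60% GC, where ANXA8 lies (53.1%), had medians of -0.047, -0.063 and -0.063. Without miR-424 replicate 3 the log2 change was -0.65, so the value was as large without the library that stood apart. Summed basal mammary markers ranged from 146 to 152 FPKM in EV and from 138 to 141 FPKM in miR-424 libraries, with the basal keratin KRT5 at means of 63.7 and 40.7 FPKM, and luminal markers ranged from 257 to 267 and from 246 to 267 FPKM; their part in the value of ANXA8 was not tested.

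The ANXA8 copies had closely similar values. Besides the row above, the table lists ANXA8 a second time under the same RefSeq transcript (chromosome 10, 47157983 to 47174122) and ANXA8L2 (chromosome 10, 47746919 to 47763040, hg19). The second ANXA8 locus read 18.5, 17.9 and 17.4 FPKM in EV libraries and between 10.8 and 11.3 FPKM in miR-424 libraries. ANXA8L2 read 19.1, 18.5 and 17.9 FPKM in EV libraries and 11.5, 11.5 and 10.9 FPKM in miR-424 libraries. Within each library the second locus stood at 89.1% to 90.7% and ANXA8L2 at 90.5% to 94.0% of the first, a nearly fixed proportion in both groups. The second locus has the same RefSeq transcript as the first, so they are not independent measurements. The identity above was shown for ANXA8L1, and the transcript of ANXA8L2 was matched to no present gene. Its sequence was therefore not compared, and its row may not be independent either. The sources used here do not say how fragments were divided among these rows. Their log2 changes were -0.65 ± 0.04 and -0.67 ± 0.04 (SE). The 3 loci together summed to 56.3 ± 1.69 FPKM in EV libraries and 34.5 ± 0.716 FPKM in miR-424 libraries (SD, n = 3), a ratio of 0.613, close to that of the first locus, so the relative difference is nearly the same whether 1 locus or the sum is read. The level itself is uncertain for the same reason.

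**Figure D2:**
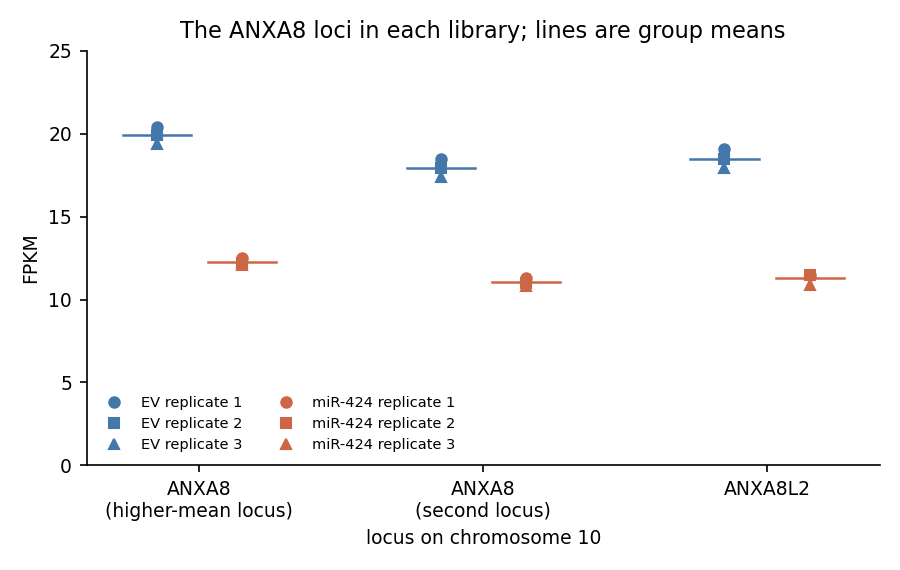
FPKM of the 3 ANXA8 loci on chromosome 10 in each library (blue EV, orange miR-424, shapes for replicates, lines for group means; the axis starts at 0). At each locus the EV libraries lie between 17.4 and 20.4 FPKM and the miR-424 libraries between 10.8 and 12.5 FPKM.

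Within each library ANXA8 can be set beside other annexins. Its FPKM was 2.16%, 2.11% and 2.08% of that of ANXA2 in the EV libraries and between 1.28% and 1.42% in the miR-424 libraries. It was 29.6%, 29.4% and 28.4% of that of ANXA7 in EV and 18.3%, 18.2% and 17.5% in the miR-424 libraries. Its share of the summed annexin FPKM was 1.11% ± 0.0145 in EV and 0.719% ± 0.0102 in miR-424 libraries (SD, n = 3). The profiles closest to ANXA8 over the 6 libraries, by Euclidean distance between log2(FPKM + 1) values centred per locus, were those of its second locus (0.0204) and of ANXA8L2 (0.0402). Next came PISD, which encodes a phosphatidylserine decarboxylase (0.0820), NEURL1B, a ubiquitin ligase gene (0.0850), and EPB49, which encodes the actin-bundling protein dematin (0.0877). PISD, as an example, read 35.5, 35.4 and 34.1 FPKM in EV libraries and 21.2, 21.6 and 22.3 FPKM in miR-424 libraries. Since the 6 libraries form 2 groups, this likeness takes in the difference between the groups.

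ANXA11 has a long proline-rich N-terminal tail and is known for linking RNA granules to lysosomes. It read 38.6, 37.8 and 37.8 FPKM in EV libraries and 31.1, 29.7 and 27.3 FPKM in miR-424 libraries (chromosome 10, 81914879 to 81965328). The groups did not overlap, and the spread among the miR-424 libraries (SD 1.93) was wider than among the EV libraries (SD 0.448). The means were 38.0 and 29.4 FPKM, a ratio of 0.772, and the log2 change was -0.36 ± 0.05 (SE), with 267 tested loci more negative. The differences from the EV mean were -0.28, -0.35 and -0.46 in miR-424 replicates 1, 2 and 3, below the medians for loci of its GC content (-0.047, -0.063 and -0.063) in each library. ANXA11 was not past the threshold without EV replicate 1, 2 or 3, where 0.665%, 0.683% and 0.726% of all tested loci passed as lower. It is the member whose 3' UTR holds the matches to the miR-424 seed printed above. Of the 463 tested loci whose longest 3' UTR holds the 8-base motif, 57 (12.3%) were lower past the threshold, against 6.46% of 9890 loci with a 3' UTR, and their 3' UTRs were longer (median 3299 against 1270 bases); the part of the match in the value of ANXA11 was not tested.

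ANXA7, the other annexin with a long N-terminal tail, showed close values. It read 69.1, 67.6 and 68.3 FPKM in EV libraries and 68.1, 67.0 and 69.0 FPKM in miR-424 libraries, with overlapping groups and a log2 change of -0.01 (95% confidence interval -0.09 to 0.07). ANXA11 stood at 55.7% ± 0.291 of ANXA7 in EV and 43.2% ± 3.20 in miR-424 libraries (SD, n = 3).

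**Figure D3:**
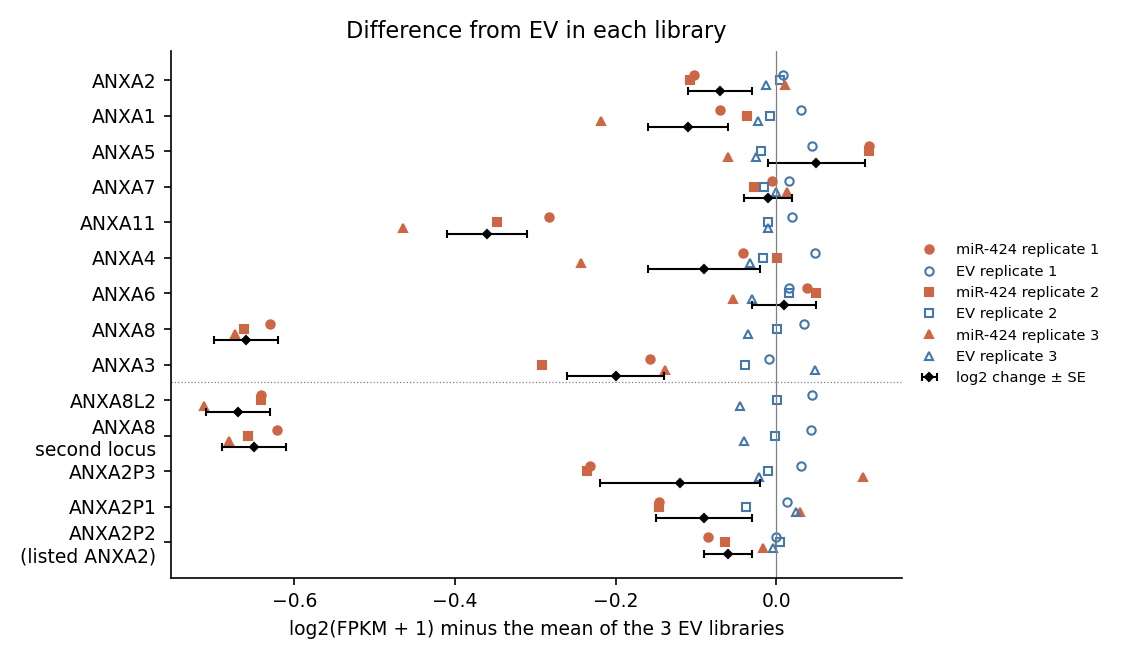
Difference of each library from the EV mean on the log2(FPKM + 1) scale for the 9 tested annexins (above the dotted line) and 5 further annexin loci; open blue symbols are EV and filled orange symbols miR-424 libraries, and black diamonds with bars the log2 change ± SE of the limma fit. The ANXA8 loci lie between -0.65 and -0.67 and ANXA11 at -0.36, and miR-424 replicate 3 (triangles) lies apart from replicates 1 and 2 for ANXA1, ANXA2, ANXA4 and ANXA5.

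ANXA2, which on the cell surface forms a complex with S100A10 that binds plasminogen activator, was the most abundant member. It read 946, 943 and 932 FPKM in EV libraries and 876, 873 and 947 FPKM in miR-424 libraries (chromosome 15, 60639349 to 60690185). MiR-424 replicates 1 and 2 were below the EV libraries and replicate 3 above them. The log2 change was -0.07 ± 0.04 (SE), 0.00 with median-of-ratios scaling, and -0.10 without miR-424 replicate 3, where ANXA2 passed the threshold as lower. A row on chromosome 9 (33624222 to 33625532) is also listed as ANXA2, but its RefSeq transcript is that of the pseudogene ANXA2P2. It stood at 36.4% to 38.2% of ANXA2 in every library, with 348, 349 and 347 FPKM in EV libraries and 328, 333 and 344 FPKM in miR-424 libraries. ANXA2P1 stood at 2.80% to 2.97% and ANXA2P3 at 0.392% to 0.488% of ANXA2. The row of ANXA2P1 spans 186206 bases (chromosome 4, 154074269 to 154260474, hg19), against 1343 bases for the pseudogene in RefSeq, so other sequence may contribute to its value. These copies share sequence with ANXA2, and the level of ANXA2 is uncertain by as much as the fragments they could exchange.

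ANXA1, known as a mediator that limits inflammation, read 415, 404 and 400 FPKM in EV libraries and 387, 396 and 349 FPKM in miR-424 libraries (chromosome 9, 75766780 to 75785307). The groups did not overlap, with miR-424 replicate 2 just under the lowest EV library and replicate 3 furthest down. The log2 change was -0.11 ± 0.05 (SE), did not pass the threshold, and was -0.06 without miR-424 replicate 3. ANXA5, the protein used to stain exposed phosphatidylserine, read 257, 246 and 245 FPKM in EV libraries and 270, 270 and 239 FPKM in miR-424 libraries (chromosome 4, 122589151 to 122618147). Its groups overlapped through replicate 3, and the log2 change of 0.05 ± 0.06 (SE) became 0.11 without that library, where ANXA5 passed as higher.

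ANXA4, which binds Golgi and plasma membranes, read 35.6, 34.0 and 33.6 FPKM in EV libraries and 33.4, 34.4 and 28.9 FPKM in miR-424 libraries (chromosome 2, 69969126 to 70053596). The groups overlapped, with replicate 3 the lowest, and the log2 change was -0.09 (95% confidence interval -0.26 to 0.07). ANXA6, whose protein carries a duplicated core, read 24.5, 24.5 and 23.7 FPKM in EV libraries and 24.9, 25.1 and 23.3 FPKM in miR-424 libraries (chromosome 5, 150480266 to 150537443), with a log2 change of 0.01 (95% confidence interval -0.10 to 0.11). Its groups overlapped.

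ANXA3 and ANXA10 were at the low end. ANXA3 read 2.49, 2.42 and 2.63 FPKM in EV libraries and 2.15, 1.87 and 2.19 FPKM in miR-424 libraries (chromosome 4, 79472741 to 79531605). The groups did not overlap, and the log2 change of -0.20 ± 0.06 (SE), which understates a change at this low level, did not pass; without miR-424 replicate 3 it was -0.22 and passed as lower. ANXA10, a gene of gastric epithelium, was under the minimum for testing, with 0.0916 to 0.183 FPKM over the 6 libraries and overlapping groups (chromosome 4, 169013687 to 169108893). Counts without miR-424 replicate 3 were therefore 4 lower and 1 higher of the 9 tested members, where 22.2% and 14.9% of all tested loci passed. The remaining family genes in the table were low in both groups: ANXA9 ranged from 0.145 to 0.323 FPKM, and ANXA13 was listed at 0 in EV replicate 3 and reached at most 0.0589 FPKM elsewhere.

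**Figure D4:**
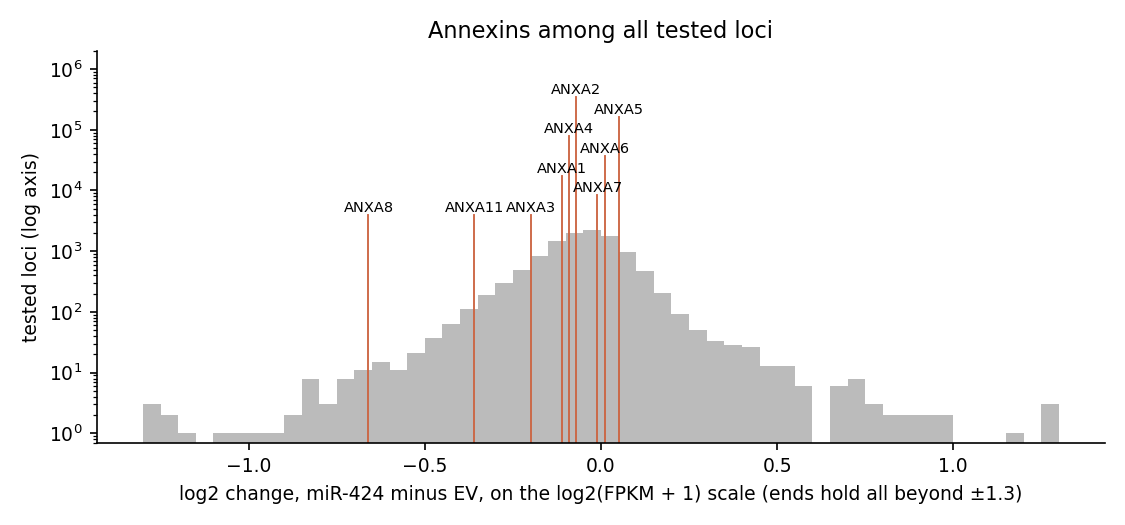
Number of tested loci (log axis) by log2 change, miR-424 minus EV, on the log2(FPKM + 1) scale, with vertical lines at the 9 tested annexins; the height of a line only sets its name apart. ANXA8 (-0.66) and ANXA11 (-0.36) lie in the lower tail and the other 7 lie between -0.20 and 0.05.

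S100 proteins that bind annexins were examined from a list of 6, of which S100B was listed at 0 and 5 were tested. By limma with Benjamini-Hochberg adjustment 0 of 5 passed, beside 6.32% of all tested loci as lower and 1.24% as higher. Unadjusted p was under 0.05 for 3, all lower. The share of all tested loci at that threshold was not counted, so nothing is read from the 3. S100A10, the partner of ANXA2, read 297, 291 and 289 FPKM in EV libraries and 265, 274 and 211 FPKM in miR-424 libraries. The miR-424 libraries were all below the EV libraries, replicate 3 by far the most, and the log2 change was -0.24 ± 0.10 (SE; Benjamini-Hochberg adjusted p by limma = 0.202, 0.00613 to 0.454 over 14 alternatives). Without miR-424 replicate 3 it was -0.12. The ratio of S100A10 to ANXA2 FPKM was 30.9% to 31.4% in EV libraries and 30.3%, 31.3% and 22.2% in miR-424 replicates 1, 2 and 3: the pair held nearly one proportion in all libraries but the last. S100A11, the partner of ANXA1, read 383, 387 and 391 FPKM in EV libraries and 393, 393 and 440 FPKM in miR-424 libraries (log2 change 0.08 ± 0.05, SE; Benjamini-Hochberg adjusted p by limma = 0.431), and without miR-424 replicate 3 the log2 change was 0.02. S100A6 read 1740, 1620 and 1620 FPKM in EV libraries and 1460, 1510 and 1260 FPKM in miR-424 libraries (log2 change -0.24 ± 0.07, SE; Benjamini-Hochberg adjusted p by limma = 0.102). The median log2 change of the 5 was -0.24, beside -0.05 over all tested loci. Without miR-424 replicate 3 the median was -0.12, beside -0.02 over all tested loci, and 3 of 5 passed as lower, beside 22.2%.

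**Figure D5:**
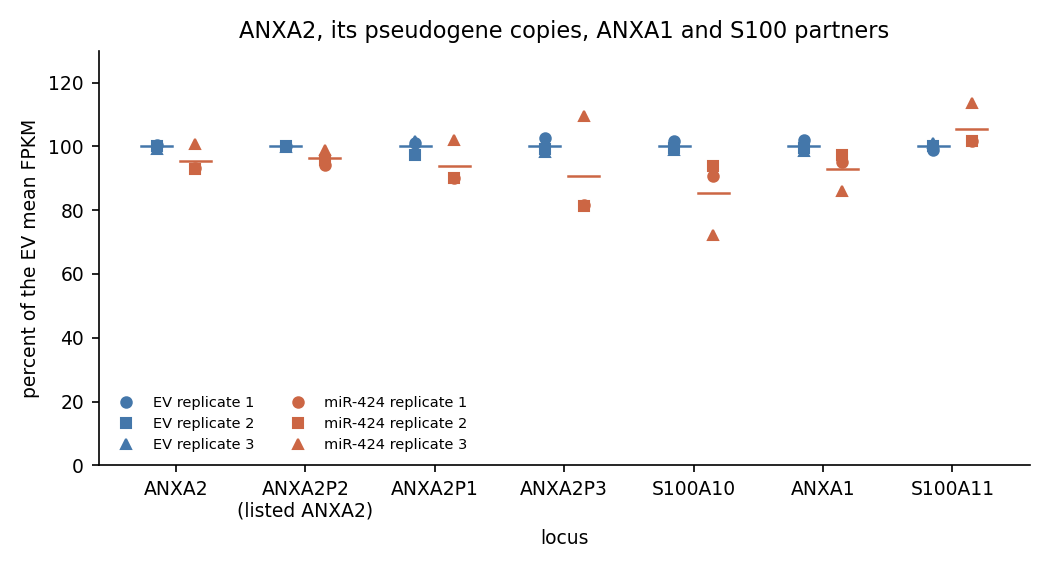
FPKM as a percent of the EV mean for ANXA2, its 3 pseudogene loci, S100A10, ANXA1 and S100A11 in each library (blue EV, orange miR-424, shapes for replicates, lines for group means; the axis starts at 0). MiR-424 replicate 3 (triangles) lies apart from replicates 1 and 2, upward for S100A11 and the ANXA2 loci and downward for S100A10 and ANXA1.

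Receptors of ANXA1 and enzymes of arachidonate release, which ANXA1 is known to restrain, were mostly low. Of 10 listed genes 4 were tested and 0 passed (limma, Benjamini-Hochberg adjusted), beside 6.32% of all tested loci as lower and 1.24% as higher. At an unadjusted p under 0.05, 1 was lower. No share over all tested loci was counted at that threshold, so nothing is read from this count. The median log2 change of the 4 was -0.05. The formyl peptide receptor gene FPR1 read 7.95, 8.04 and 7.82 FPKM in EV libraries and 7.68, 6.78 and 9.07 FPKM in miR-424 libraries. The locus of the phospholipase gene PLA2G4B, which the table merges with its neighbour JMJD7, read 4.94, 4.68 and 5.03 FPKM in EV libraries and 4.02, 3.60 and 4.57 FPKM in miR-424 libraries (log2 change -0.22 ± 0.08, SE; Benjamini-Hochberg adjusted p by limma = 0.136). Without miR-424 replicate 3, 1 of the 4 passed as lower, beside 22.2% of all tested loci.

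Of 20 genes of plasma membrane repair, the process in which several annexins act, 17 were tested and 2 fell and 0 rose (limma, Benjamini-Hochberg adjusted), where 6.32% of all tested loci fell and 1.24% rose. Lower at an unadjusted p under 0.05 were 5, and higher 0. The share of all tested loci at that threshold was not counted, so nothing is read from these 5. VPS4A, an ATPase gene that recycles the ESCRT machinery, fell from 37.8, 37.4 and 38.0 FPKM in EV libraries to 28.3, 28.7 and 27.4 FPKM in miR-424 libraries. Its log2 change was -0.41 ± 0.04 (SE; Benjamini-Hochberg adjusted p by limma = 0.00283), and it passed in 14 of 14 alternatives. DYSF, which encodes the repair protein dysferlin, fell from 1.45 ± 0.0696 to 1.07 ± 0.0444 FPKM (SD, n = 3; log2 change -0.25 ± 0.05, SE; Benjamini-Hochberg adjusted p by limma = 0.0259). It passed in 5 of 13 alternatives, and in none of those that left out a library other than miR-424 replicate 3. The median log2 change of the 17 was -0.05, that of all tested loci, and without miR-424 replicate 3 there were 6 falls and 3 rises, where 22.2% of all tested loci fell and 14.9% rose.

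Among other calcium-dependent phospholipid binders, the copines, 5 of 9 were tested and 1 fell, CPNE2, beside 6.32% of all tested loci (limma, Benjamini-Hochberg adjusted). Unadjusted p under 0.05 gave 2 lower and 0 higher. Nothing is read from this, since the share of all tested loci at that threshold was not counted. CPNE2 went from 6.06 ± 0.033 to 4.51 ± 0.293 FPKM (SD, n = 3; log2 change -0.36 ± 0.05, SE; Benjamini-Hochberg adjusted p by limma = 0.0112, 0.000325 to 0.0769 over 14 alternatives). It passed in 9 of 14 alternatives, and not with quantile normalization or without EV replicate 1, 2 or 3 or miR-424 replicate 1. The median log2 change of the 5 copines was -0.07, and without miR-424 replicate 3 there were 2 falls and 1 rise, beside 22.2% and 14.9% of all tested loci.

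Scramblases and flippases set how much phosphatidylserine, the lipid annexins bind, faces outward. Of 12 listed genes 10 were tested and 2 fell and 0 rose (limma, Benjamini-Hochberg adjusted), beside 6.32% of all tested loci that fell and 1.24% that rose. The counts were the same at an unadjusted p under 0.05, where no share over all tested loci was counted, so nothing is read from them at that threshold. The scramblase family gene PLSCR4 read 2.77, 3.12 and 3.35 FPKM in EV libraries and 1.79, 1.57 and 1.38 FPKM in miR-424 libraries, without overlap. Its log2 change was -0.66 ± 0.08 (SE; Benjamini-Hochberg adjusted p by limma = 0.00719), and the call ended without EV replicate 2 (adjusted p = 0.0533 by limma, in a range of 0.00108 to 0.0533 over 13 alternatives). XKR8, which encodes a caspase-activated scramblase, fell from 5.77 ± 0.180 to 4.31 ± 0.244 FPKM (SD, n = 3; log2 change -0.35 ± 0.05, SE; Benjamini-Hochberg adjusted p by limma = 0.0123). XKR8 passed in 8 of 14 alternatives, and not with quantile normalization, with the replicate number as a block, or without EV replicate 1, 2 or 3 or miR-424 replicate 1. The median of the 10 was -0.01, and without miR-424 replicate 3 there were 2 falls and 4 rises, beside 22.2% and 14.9% of all tested loci.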

How the data were processed

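RNA sequencing of 6 MCF12A samples is held in 1 table of FPKM values, which the authors deposited with 1 column per sample. TopHat 1.4.1, Cufflinks 1.3.0 and Cuffdiff are named without roles in the submitters' processing notes, with the builds hg19 and GRCh37; the sources used here give no annotation, read numbers, strand use or scaling. Columns and groups were matched by sample title. Values were taken as log2(FPKM + 1), loci averaging 1 FPKM or more were kept (11574 of 24294), and miR-424 was compared with EV by limma 3.58.1 (R 4.3.3; trended prior variance, no covariate, two-sided, Benjamini-Hochberg over all tested loci, threshold 0.05), checked on simulated data. Fold changes on this scale understate those of low genes. An exact permutation test of 3 against 3 cannot go below p = 0.1 and was not used. Hg19 coordinates are those of the table; sequences come from GENCODE 29 and RefSeq by symbol or transcript, and pseudogenes were aligned with Biopython 1.88. Of tested loci, 9890 (85.5%) had a 3' UTR of at least 30 bases.

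The members, the 6 gene lists, the markers and the tests were chosen with earlier results of these data known. The value of 1 leukocyte marker is not reported here. Named genes were the 10 members, all other annexin loci above 0, MIR424, per list at most 4 called members or else the 2 with the highest mean, S100A10 and S100A11, and the 5 profiles closest to ANXA8. Alternatives were other pseudocounts (0.1, 0.5), filters (none, 5 FPKM), scalings, a prior without trend, a replicate block, and leaving out each library.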

Additional observations from a re-analysis of the deposited data

How the results depend on the processing

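The log2 change ranged from -0.70 to -0.59 for ANXA8 and from -0.41 to -0.30 for ANXA11 over 14 alternatives, as a description. Over all loci 144 were higher and 731 lower; median-of-ratios scaling gave 344 and 436, quantile normalization 319 and 447, and a minimum of 5 FPKM 468 lower. Replicate numbers were used as a block although the labels only number the samples: deviations of samples with the same number correlated at 0.0509, 0.152 and 0.127, EV replicate 1 correlated best with miR-424 replicate 2, and the replicate block gave 79 higher and 270 lower. With the block, membrane repair genes had 1 fall and scramblases and flippases 1. Leaving out 1 library gave 31 to 1728 loci higher and 77 to 2574 lower, and annexin members 0 to 1 and 1 to 4. For the lists these ranges were 1 to 3 lower for ANXA8L2, ANXA2P1 and ANXA2P3 (the second ANXA8 locus and ANXA2P2 were not in this list), 0 to 3 lower for S100 partners, 0 to 1 lower for ANXA1 receptors and arachidonate release, 0 to 3 higher and 1 to 6 lower for membrane repair, 0 to 1 and 0 to 2 for copines, and 0 to 4 and 0 to 2 for scramblases and flippases. Without a filter on low values 2 arachidonate genes were higher and 4 repair genes lower, where 152 of 19342 loci were higher and 749 lower. A minimum of 5 FPKM gave 1 lower repair gene and 1 lower scramblase, since fewer genes were tested. Median-of-ratios scaling gave 1 higher and 1 lower repair gene, and quantile normalization gave 1 lower repair gene, 0 copines and 1 scramblase; the cause was not tested. The log2 change of ANXA2P2 became 0.01 with median-of-ratios scaling, and that of FPR1 0.04 with either scaling and 0.07 without miR-424 replicate 2 (-0.12 without replicate 3). Without such scaling the median of all loci was -0.05, and with it 0.01. ANXA7 (-0.01) then read 0.06 and 0.03. Depth was unknown, so the counting error of low genes such as ANXA3 and ANXA10 could not be estimated.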
